A study of Mus musculus with 50 samples.

Results

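The autosomal transcriptome of *Ezh2* Y726D mouse embryonic stem cells (ESCs) was compared with that of *Ezh2* KO ESCs by RNA-seq. The 4 libraries of this comparison, 2 per line, are part of 50 samples, of which 8 are RNA-seq libraries of 4 lines, WT E14 cells and 3 lines made from them by CRISPR/Cas9. In *Ezh2* KO ESCs the whole *Ezh2* gene is excised and *Ezh1* is intact, so EZH1 is the only H3K27 methyltransferase left. The *Ezh2* Y726D line carries a homozygous Y726D exchange, of a tyrosine for an aspartic acid, in *Ezh2*, made in *Ezh1* KO cells, which leaves EZH2 protein without catalytic activity. WT ESCs carry both intact genes and *Ezh1/2* dKO ESCs neither, and the 2 libraries of each are given beside the comparison. All lines were grown without feeder cells in serum and LIF with inhibitors of GSK3β and MEK. The lines are selected clones, and the sources used here do not say how many clones stand behind the libraries. The 2 lines compared differ at both loci, so the mutated EZH2 and the missing EZH1 cannot be told apart in what follows.

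The members are the genes of the autosomes outside chromosome 12, and chromosome 12 is reported apart. Of 18055 genes in the table, 16145 lay on these autosomes by the mm9 annotation and 12615 of them were tested. A further 594 genes lay on chromosome 12 (463 tested), 685 on X and Y, and 631 had no mm9 position. A gene was tested when its mean normalized count over all 8 libraries was at least 5, and was called at an adjusted p under 0.1 (limma, Benjamini-Hochberg) with a log2 fold change of 1 or more in either direction, on the scale log2(normalized count + 1), which understates the change of low genes.

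Polycomb repressive complex 2 (PRC2) methylates lysine 27 of histone H3 through either EZH1 or EZH2, which assemble with SUZ12 and EED. Trimethylation (H3K27me3) at CpG-rich promoters keeps developmental regulators such as the Hox genes silent in ESCs and is bound by the CBX subunits of canonical PRC1. Acetylation of the same residue (H3K27ac) marks active promoters and enhancers and cannot coexist with methylation on one histone tail.

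The promoters of the 3 called SUZ12-bound genes with the largest rise are shown with that of *Serpinf1*, the gene with the largest fall, which was chosen for printing after its values were seen. Each line holds the 250 bases before a transcription start on the strand of the gene, from RefSeq on GRCm38.p6, with each CG dinucleotide in capitals. The intervals are chr6:52240855-52241104 and chr6:52234940-52235189 (both minus strand) for the 2 listed starts of *Hoxa10*, chr6:52244993-52245242 (plus strand) for *Hoxa11os*, chr6:52227371-52227620 (minus strand) for *Hoxa9* and chr11:75422624-75422873 (minus strand) for *Serpinf1*. 
Hoxa10 first start: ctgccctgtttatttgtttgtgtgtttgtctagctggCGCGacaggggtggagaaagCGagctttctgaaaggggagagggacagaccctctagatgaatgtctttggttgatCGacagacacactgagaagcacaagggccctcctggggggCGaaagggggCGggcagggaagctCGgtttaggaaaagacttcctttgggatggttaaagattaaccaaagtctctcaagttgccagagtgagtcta
Hoxa10 second start: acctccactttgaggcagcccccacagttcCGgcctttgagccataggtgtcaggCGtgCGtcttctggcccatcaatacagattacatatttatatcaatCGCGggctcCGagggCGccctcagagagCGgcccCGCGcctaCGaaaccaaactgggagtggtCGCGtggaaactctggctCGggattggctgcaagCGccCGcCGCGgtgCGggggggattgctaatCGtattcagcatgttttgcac
Hoxa11os: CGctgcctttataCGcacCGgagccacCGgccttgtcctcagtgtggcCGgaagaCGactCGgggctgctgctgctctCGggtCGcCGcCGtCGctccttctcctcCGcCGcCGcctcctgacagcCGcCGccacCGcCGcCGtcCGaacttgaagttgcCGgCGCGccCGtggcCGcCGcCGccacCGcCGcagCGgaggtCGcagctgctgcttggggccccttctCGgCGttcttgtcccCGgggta
Hoxa9: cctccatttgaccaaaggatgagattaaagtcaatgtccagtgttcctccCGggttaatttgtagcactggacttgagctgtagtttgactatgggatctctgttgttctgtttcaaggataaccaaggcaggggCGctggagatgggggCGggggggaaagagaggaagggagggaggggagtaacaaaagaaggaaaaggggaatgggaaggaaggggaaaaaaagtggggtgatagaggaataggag
Serpinf1: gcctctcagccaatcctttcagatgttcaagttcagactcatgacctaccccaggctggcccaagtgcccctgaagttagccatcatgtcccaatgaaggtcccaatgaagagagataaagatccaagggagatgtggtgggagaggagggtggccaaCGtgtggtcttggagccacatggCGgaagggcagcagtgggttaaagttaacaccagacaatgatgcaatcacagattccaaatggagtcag
They hold 7, 20, 35, 3 and 2 CG dinucleotides in this order. Over all 32851 listed promoters the median was 6, and 2.97% held at least as many as *Hoxa11os*, 71.0% at least as many as *Hoxa9* and 81.2% at least as many as *Serpinf1*. The 3 genes that rose, all of the HoxA cluster, thus ranged from few to many CG dinucleotides directly before the start. They do not stand for the other rises.

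The libraries held 4069424 to 4932714 reads on genes in the 2 lines compared and 3604123 to 5181553 in all 8, and 1 read was worth a normalized count of 1.05 and 0.968 in the *Ezh2* KO replicates and of 0.892 and 1.12 in the *Ezh2* Y726D replicates. Replicates of a line correlated at 0.973 in *Ezh2* KO and 0.953 in *Ezh2* Y726D (Pearson's r of the log2 values over tested genes, which are not independent). *Ezh2* was at 1.05 and 0.968 in the *Ezh2* KO replicates and at 422 and 613 in *Ezh2* Y726D, where WT had 598 and 546 and *Ezh1/2* dKO 0.824 and 1.78. *Ezh1* was at 372 and 378 in *Ezh2* KO and at 24.1 and 15.7 in *Ezh2* Y726D, where WT had 227 and 377 and *Ezh1/2* dKO 14.01 and 20.4. Both engineered genes therefore followed the labels in all 8 libraries, and their calls (log2 fold change 7.99 ± 0.39 SE for *Ezh2*, -4.20 ± 0.35 for *Ezh1*) are the mutations themselves. The pluripotency factor *Pou5f1* was at 1650 and 1472 in *Ezh2* KO and 1496 and 1703 in *Ezh2* Y726D. Genes of the Y chromosome, outside the autosomal rule, set the lines apart: *Uty* was at 470.5 and 399.6 in *Ezh2* KO and at 0 in both *Ezh2* Y726D libraries. Genes of intestinal epithelium, a cell type no line should hold, summed over 25 markers to 334 and 485 in *Ezh2* KO, 525 in WT replicate 2, 14.7 in WT replicate 1 and 26.7 to 36.4 in the *Ezh2* Y726D and *Ezh1/2* dKO libraries.

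Of the 12615 genes tested, 286 were called higher in *Ezh2* Y726D than in *Ezh2* KO ESCs (2.27%) and 142 lower (1.13%), while 1897 had an unadjusted p under 0.05 and the median log2 fold change of all was 0.01. *Ezh2* itself, *Hoxa10* and *Hoxa11os* had the largest fitted rises and *Serpinf1*, *Fabp1* and *P2rx3* the largest fitted falls. The number of calls depended on single libraries. Without *Ezh2* Y726D replicate 2, *Ezh2* KO replicate 1 or *Ezh2* KO replicate 2, the higher calls were 99, 96 and 64 and the lower calls 65, 38 and 19. Without *Ezh2* Y726D replicate 1 they were 384 and 459.

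**Figure D1:**
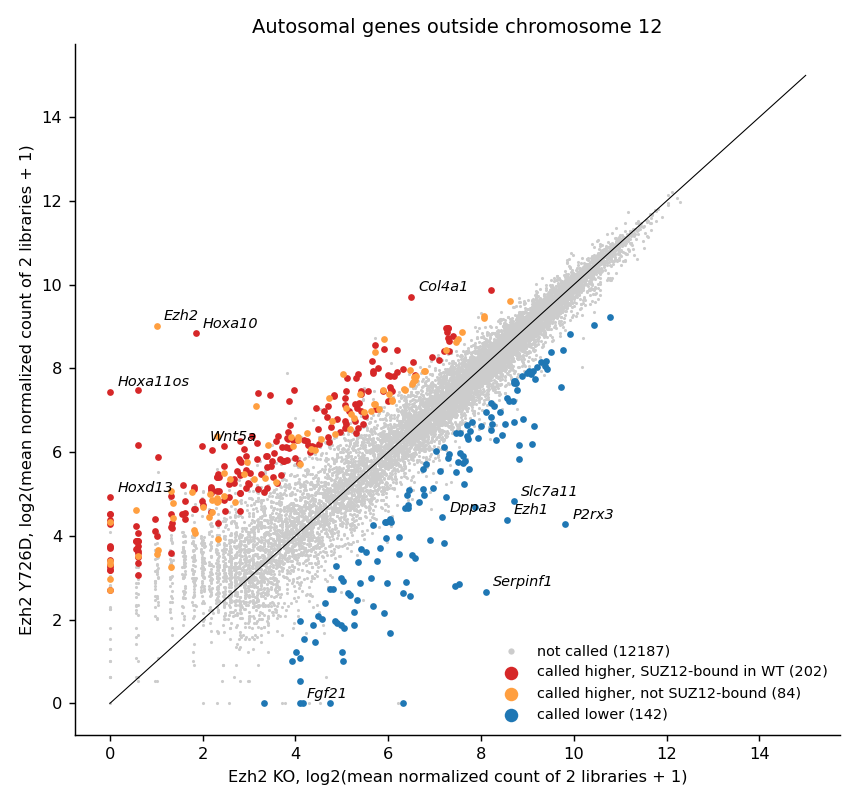
Mean normalized count of each tested autosomal gene outside chromosome 12 in *Ezh2* KO (horizontal axis) and *Ezh2* Y726D ESCs (vertical axis), both as log2(mean of 2 libraries + 1). Red and orange points are the 286 genes called higher (202 SUZ12-bound in WT, 84 not), blue points the 142 called lower, grey points the other tested genes, and the line marks equal levels.

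The HoxA cluster held the largest rises. *Hoxa10* (chr6:52181196-52190853, mm9), a homeodomain transcription factor of the posterior body axis, was at 5.23 and 0 in *Ezh2* KO, 424 and 493 in *Ezh2* Y726D, 226 and 223 in *Ezh1/2* dKO and at most 2.67 in WT. Its reads rose 181-fold (95% counting interval 77.2 to 558, log2 fold change 7.52 ± 0.83 SE, adjusted p = 0.00485). The intervals of single genes cover counting error only and not the spread between libraries. *Hoxa9* (chr6:52173099-52181088), its neighbour with a related role in the posterior axis, was at 1.05 and 0 in *Ezh2* KO and at 145 and 210.3 in *Ezh2* Y726D (347-fold, 95% counting interval 61.8 to 13726, adjusted p = 0.00349). The wide interval reflects the single read in the *Ezh2* KO libraries. *Hoxa11os* (chr6:52194392-52199798), a non-coding RNA antisense to *Hoxa11*, had no read in *Ezh2* KO and was at 158 and 189 in *Ezh2* Y726D, at least 114-fold higher against a floor of 3 reads over the 2 libraries (adjusted p = 0.000652). *Hoxa11* (chr6:52192107-52196213), a limb and reproductive tract regulator, was at 2.09 and 0 against 44.6 and 71.6. Since the authors counted without strand and *Hoxa11* and *Hoxa11os* overlap, their reads cannot be told apart.

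Among the other Hox genes, *Hoxa7* was at 10.5 and 5.81 in *Ezh2* KO and at 106 and 232 in *Ezh2* Y726D (20.1-fold, 95% counting interval 12.2 to 35.6, adjusted p = 0.00485). *Hoxd13*, a regulator of digit formation at the end of the HoxD cluster, had no read in *Ezh2* KO or WT and was at 27.6 and 31.3 in *Ezh2* Y726D, at least 19.4-fold higher than in *Ezh2* KO (adjusted p = 0.0057). *Hoxb7* was at 1.05 and 0 against 20.5 and 6.71 (adjusted p = 0.0853). In all 3 the *Ezh1/2* dKO libraries were also above both *Ezh2* KO libraries. Of 36 autosomal Hox genes present, all SUZ12-bound in WT, 20 passed the filter on low values and 8 were called higher, the other 2 being *Hoxa3* and *Hoxd10*. None was called lower, where 2.27% of all tested genes were called higher and 1.13% lower. The median log2 fold change of the 36 without a filter was 1.38, against 0.01 over all tested genes. Both *Ezh2* Y726D libraries were above both *Ezh2* KO libraries in 21 of the 36 and below in 2, where the shares over all 16145 genes were 21.9% and 18.8%. The filter let several of them in only through the lines in which they were high, and with a filter on WT levels alone 1 Hox gene remained called.

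**Figure D2:**
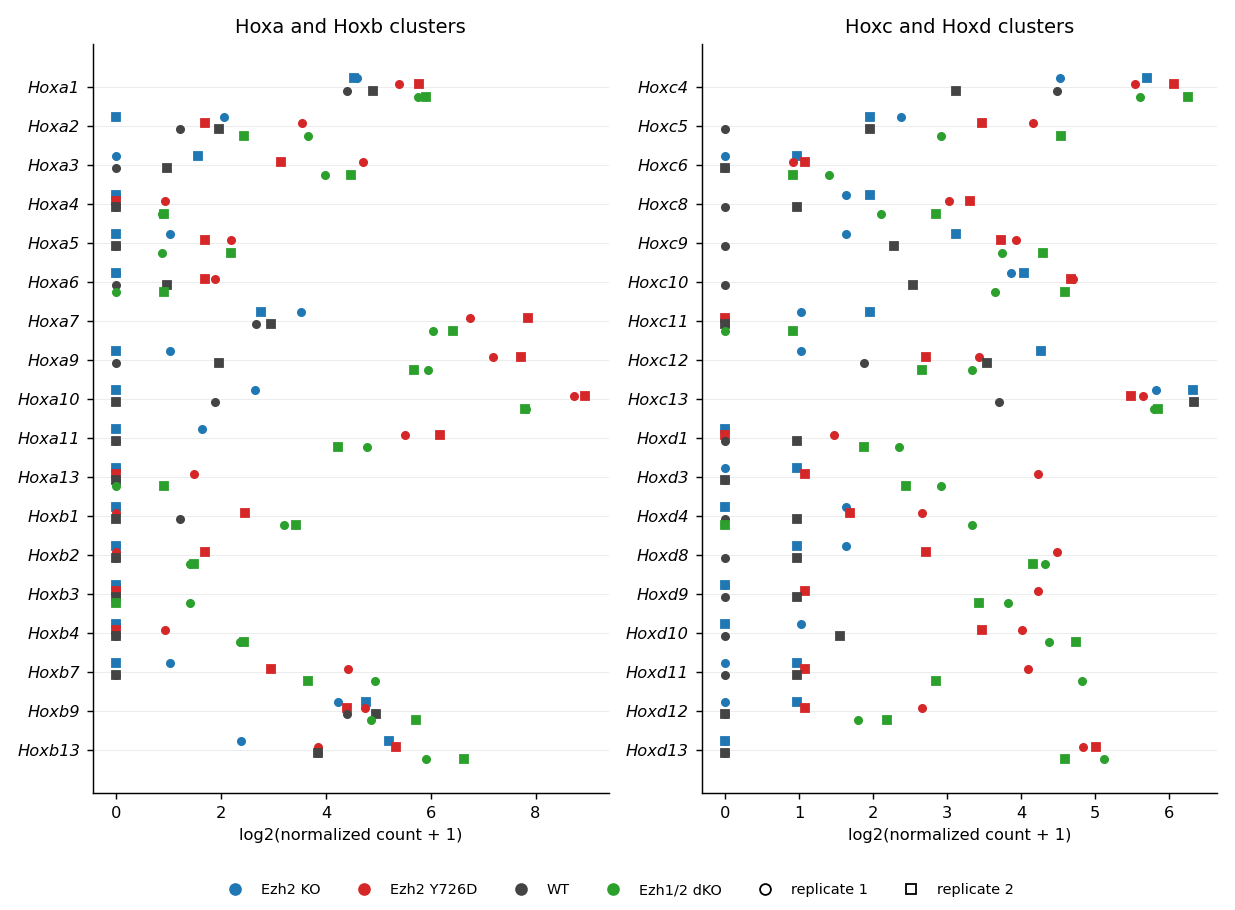
Normalized counts of the 36 Hox genes of the table, as log2(normalized count + 1), in each of the 8 libraries, with circles for replicate 1 and squares for replicate 2. *Hoxa7* to *Hoxa11* and *Hoxd13* lie far apart between *Ezh2* KO (blue) and *Ezh2* Y726D (red), while *Hoxb9* and *Hoxb13* overlap between the lines.

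Outside the Hox clusters the largest rises mixed signalling, membrane and extracellular proteins. *Wnt5a*, a ligand of non-canonical Wnt signalling, was at 2.09 and 3.87 in *Ezh2* KO and at 69.5 and 69.4 in *Ezh2* Y726D (23.0-fold, 95% counting interval 10.3 to 63.8, adjusted p = 0.0104). *Fam174b* was at 1.05 and 0 against 42.8 and 98.4, with 13.3 and 12.5 in WT (adjusted p = 0.00485). A group of 5 further genes had no read in either *Ezh2* KO library. *Chst11*, a chondroitin sulfotransferase, reached 19.6 and 20.1, *Fgl2*, a fibrinogen-like secreted protein, 17.8 and 20.1, and *Bmp1*, the procollagen C-proteinase, 13.4 and 23.5. They were at least 13.2-fold, 12.5-fold and 11.8-fold higher. *Mfsd2a*, a transporter of lysophospholipids, was at 8.02 and 35.8 and *Nptx1*, a neuronal pentraxin, at 38.3 and 5.59, so that 1 library carried most of the reads of each. *Gm8994* was at 3.14 and 4.84 in *Ezh2* KO and at 70.4 and 96.2 in *Ezh2* Y726D, but at 291 and 102 in WT, so the *Ezh2* KO libraries were the low ones.

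**Figure D3:**
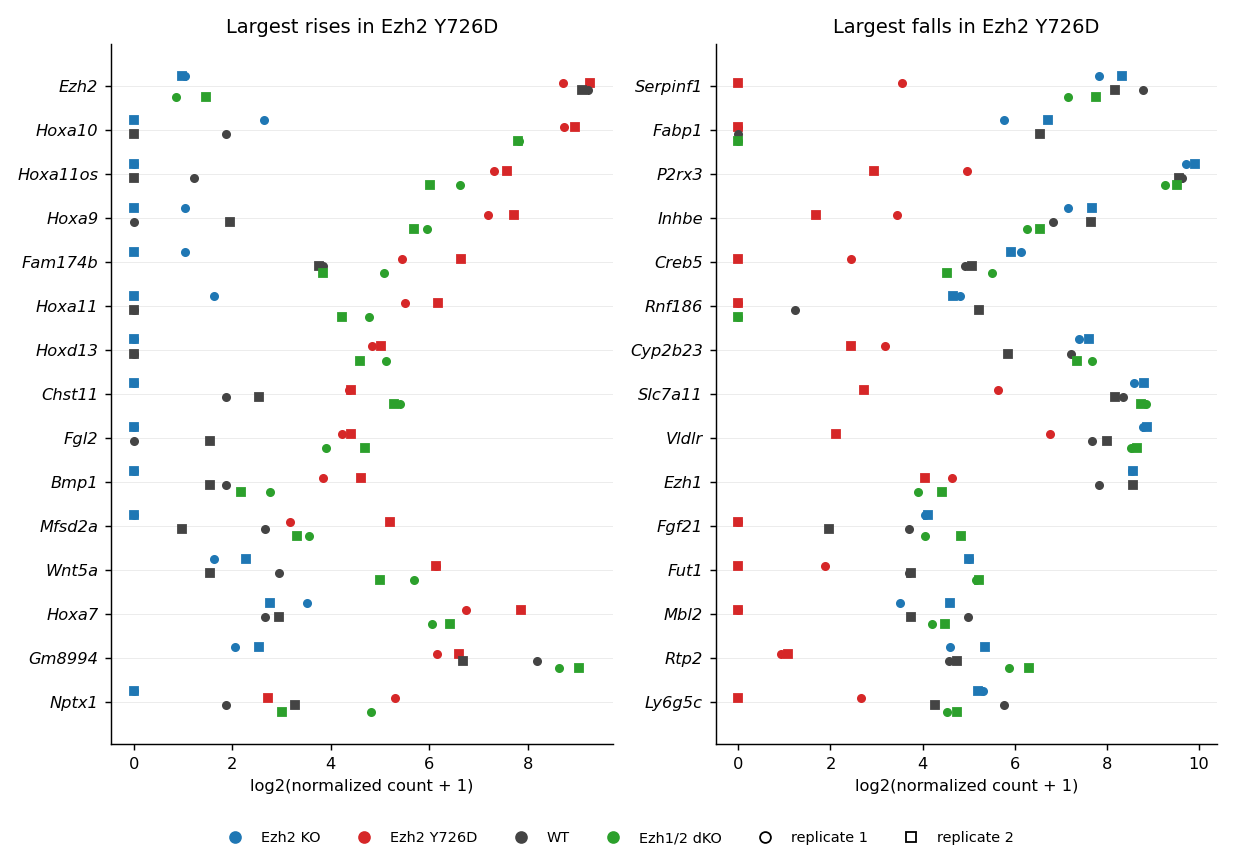
The 15 genes with the largest rise (left) and the 15 with the largest fall (right) in *Ezh2* Y726D against *Ezh2* KO, as log2(normalized count + 1) in each of the 8 libraries, with circles for replicate 1 and squares for replicate 2. For most falls the *Ezh2* Y726D libraries (red) stand alone at the low end, whereas for *Fabp1* and *Rnf186* the *Ezh1/2* dKO libraries (green) and WT replicate 1 are also at or near 0.

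The peak lists of the same study show which of these promoters carried PRC2. A gene counted as SUZ12-bound when a WT SUZ12 peak (p of at most 1e-10) lay within 5 kb of one of its transcription starts. The lists come from 1 library per line and target, of unknown depth, so nothing between lists was tested, and the classes below are descriptions. Of 2813 bound genes 1832 were tested, of which 202 were called higher (11.03%) and 17 lower (0.928%), with a median log2 fold change of 0.58. Among the 10783 tested genes without a peak 84 were called higher (0.779%) and 125 lower (1.16%), with a median of -0.02. The tested genes include some that passed the filter only where they were high, but over all 2813 bound genes of the table both *Ezh2* Y726D libraries were above both *Ezh2* KO libraries in 42.5% and below in 7.93%, and over the 13332 unbound genes in 17.6% and 21.1%. SUZ12-bound genes made up 70.6% of the 286 rises, 17 of the 142 falls and 14.5% of the tested genes. The 95% Wilson interval of the first share, 65.1 to 75.6, treats genes as independent and does not cover the spread between libraries. Without *Ezh2* Y726D replicate 2, *Ezh2* KO replicate 1 or *Ezh2* KO replicate 2, 80, 66 and 52 bound genes were called higher.

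Among bound genes the share called higher was larger where *Ezh2* KO cells still held PRC2 marks. With an H3K27me3 peak in *Ezh2* KO, 189 of 1341 genes were called higher (14.1%, median 0.81), and without one 13 of 491 (2.65%, median 0.12). The 372 genes that kept a SUZ12 peak in *Ezh2* KO included 82 called higher (22.0%, median 1.27), and the 1460 without such a peak 120 (8.22%, median 0.46). *Hoxa10*, *Hoxa9*, *Hoxa7*, *Hoxd13*, *Wnt5a* and *Chst11* all had both peaks. The split by SUZ12 in *Ezh2* Y726D was narrower. A SUZ12 peak in *Ezh2* Y726D was listed at 1027 of the bound genes, of which 130 were called higher (12.7%, median 0.69), and 72 of the 805 genes without one were called higher (8.94%, median 0.46). Of the 286 rises 135 had a SUZ12 peak in *Ezh2* Y726D (47.2%, against 10.3% of all tested genes), 205 an H3K27me3 peak in *Ezh2* KO (71.7%, against 13.1%) and 1 an H3K27me3 peak in *Ezh2* Y726D (0.35%, against 1.46%). Genes with fewer reads were more frequent among those with PRC2 marks (59.2% of the bound genes with H3K27me3 in *Ezh2* KO were tested, against 89.8% of the others), and the part of expression level in these shares was not tested.

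H3K27ac in *Ezh2* KO also split the bound genes. With H3K27ac in *Ezh2* Y726D but not in *Ezh2* KO, 113 of 720 bound genes were called higher (15.7%, median 0.80) and 1 lower. Without H3K27ac in either line 80 of 637 were called higher (12.6%, median 0.89). With H3K27ac in both lines 9 of 462 were called higher (1.95%, median 0.09) and 10 lower. The share of rises was thus low at bound promoters acetylated in *Ezh2* KO, and where *Ezh2* KO had no H3K27ac peak it was 15.7% with and 12.6% without one in *Ezh2* Y726D. These classes differ in expression. Of the bound genes with H3K27ac in both lines 92.2% were tested, against 75.5% with it in *Ezh2* Y726D only and 47.5% with it in neither. The part of expression level in this split was not tested. Among unbound genes a new H3K27ac peak in *Ezh2* Y726D went with 23 of 1350 called higher (1.7%), and no H3K27ac peak in either line with 42 of 2207 (1.9%). The *Ezh2* Y726D list was the longer one, with 40829 peaks against 25483, and reached 73.4% of the tested genes against 61.0%.

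**Figure D4:**
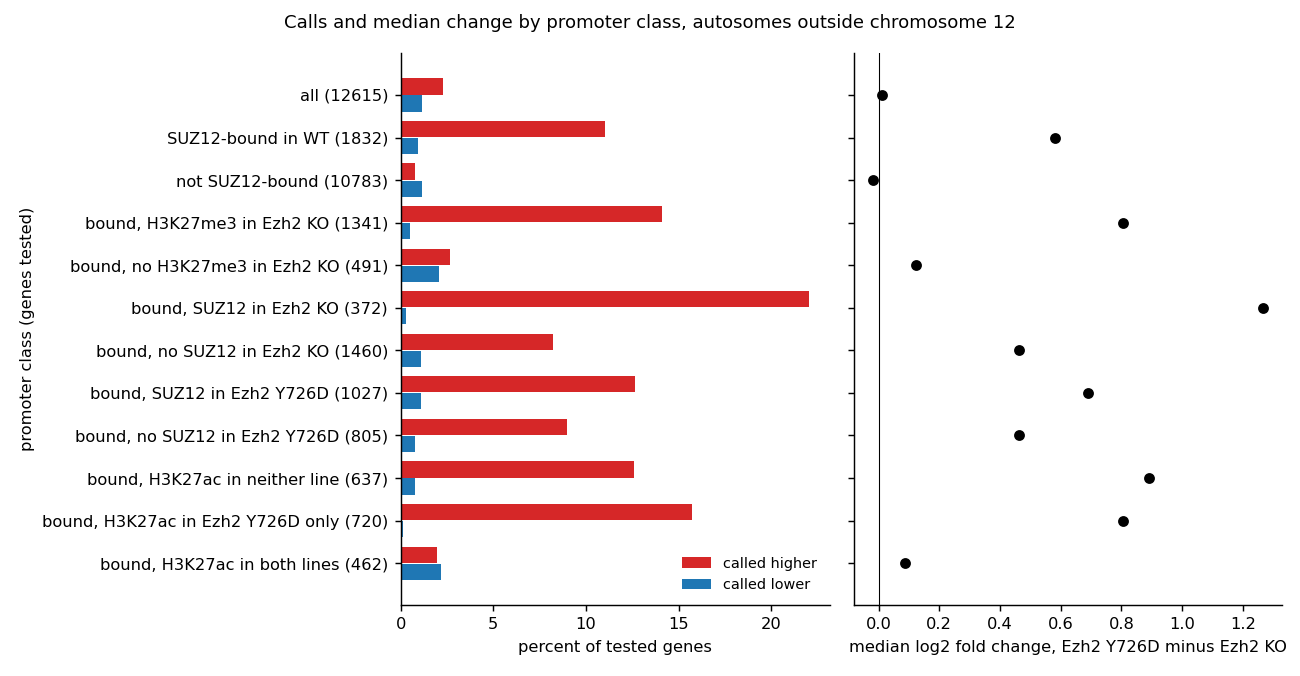
Share of tested genes called higher (red bars) or lower (blue bars) in *Ezh2* Y726D against *Ezh2* KO, in percent (left), and the median log2 fold change (right), for promoter classes with the number of tested genes in parentheses. Bound genes with a SUZ12 peak in *Ezh2* KO stand highest at 22.0%, and bound genes with H3K27ac in both lines are close to all tested genes.

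A comparison that shares no library with this one is *Ezh1/2* dKO against WT, fitted in the same model. The residual variance of each gene, pooled over all lines, and the filter on low values were common to both comparisons. Calls in both can therefore coincide partly by construction, and the called shares below are not independent evidence. Counts of libraries above or below do not use this variance, but the same filter applies to them. Of the 286 rises 93 were called higher in *Ezh1/2* dKO than in WT (32.5%), where 3.61% of all tested genes were, and both *Ezh1/2* dKO libraries were above both WT libraries in 204 (71.3%, against 27.8% of all). Of the 142 falls 3 were called lower in *Ezh1/2* dKO (2.11%, against 0.404%) and 14 higher (9.86%, against 3.61%). Both *Ezh1/2* dKO libraries were below both WT libraries in 33 of the falls (23.2%, against 24.7% of all). The median normalized count of the 286 rises was 9.41 and 10.6 in *Ezh2* KO, 62.4 and 67.7 in *Ezh2* Y726D, 61.4 and 56.8 in *Ezh1/2* dKO and 26.0 and 19.3 in WT. For the 142 falls it was 116 and 143 in *Ezh2* KO, 31.2 and 20.7 in *Ezh2* Y726D, 140.1 and 136.7 in *Ezh1/2* dKO and 111 and 120 in WT. These medians are descriptions, because the genes were chosen for low or high *Ezh2* KO values.

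*Serpinf1*, which encodes the secreted anti-angiogenic factor PEDF, was at 228 and 322 in *Ezh2* KO, 10.7 and 0 in *Ezh2* Y726D, 443 and 287 in WT and 142 and 218 in *Ezh1/2* dKO (46.5-fold lower than in *Ezh2* KO, 95% counting interval 26.4 to 90.6, adjusted p = 0.0105). *P2rx3*, an ATP-gated cation channel of sensory neurons, was at 841 and 961 against 30.3 and 6.71, with 611 to 791 in the WT and *Ezh1/2* dKO libraries (45.5-fold lower, 95% counting interval 33.3 to 63.9, adjusted p = 0.00122). The *Ezh2* Y726D libraries were below all 6 others for both genes. *Inhbe*, an activin β subunit, fell from 141 and 204 to 9.81 and 2.24, and *Cyp2b23*, a cytochrome P450 of a family with near-identical members whose reads may be split, from 168 and 196 to 8.02 and 4.47. *Slc7a11*, the cystine and glutamate exchanger, was at 388 and 446 in *Ezh2* KO but at 49.0 and 5.59 in *Ezh2* Y726D, and *Vldlr*, a lipoprotein receptor, at 438 and 467 but at 109 and 3.36. Both stood far apart between the *Ezh2* Y726D replicates, with log2 fold changes of -4.52 ± 0.70 and -4.37 ± 1.09 SE (adjusted p = 0.0163 and 0.0835).

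The rest of the largest falls were lower expressed in *Ezh2* KO. *Fgf21*, a metabolic hormone, and *Fut1*, a fucosyltransferase, are neighbours on chromosome 7 (chr7:52869277-52870860 and chr7:52872976-52876429, mm9). *Fgf21* was at 15.7 and 16.4 in *Ezh2* KO and 0 in both *Ezh2* Y726D libraries, at least 10.8-fold lower, and *Fut1* at 31.4 and 31.0 against 2.67 and 0. *Mbl2*, a collectin, was at 10.5 and 23.2 against 0, at least 11.5-fold lower. *Creb5*, a bZIP factor, was at 69.0 and 60.0 against 4.46 and 0, *Ly6g5c* at 38.7 and 35.8 against 5.35 and 0, and *Rtp2*, a receptor transporter, at 23.0 and 39.7 against 0.892 and 1.12. All 6 had reads in every WT and *Ezh1/2* dKO library. *Fabp1* (53.3 and 105 against 0, at least 53.7-fold lower) and *Rnf186* (27.2 and 24.2 against 0, at least 17.2-fold lower) are genes of intestinal epithelium. *Fabp1* was also at 0 in both *Ezh1/2* dKO libraries and WT replicate 1 and at 93.4 in WT replicate 2. The summed level of the 25 intestinal markers, chosen after their values were seen, moved with both genes, although *Vil1* (4.18 and 14.5 against 15.2 and 15.7) and *Muc2* (3.14 and 0.968 against 3.57 and 6.71) did not. Above 0 were 23 and 25 of them in *Ezh2* KO, 23 in WT replicate 2, and 4 to 11 in the others. The part of such cells or their RNA in these 2 falls was not tested.

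Peaks at the fallen genes differed from those at the genes that rose. Of the 142 falls 12 had an H3K27me3 peak in *Ezh2* KO (8.45%, against 13.1% of all tested genes) and 1 a SUZ12 peak there (0.704%, against 2.96%). A SUZ12 peak in *Ezh2* Y726D was listed at 14 of them (9.86%, against 10.3%) and an H3K27me3 peak in WT at 24 (16.9%, against 18.8%), shares close to those of all tested genes. Of the falls 82 had H3K27ac in *Ezh2* KO (57.7%) and 81 in *Ezh2* Y726D (57.0%), where all tested genes had 61.0% and 73.4%. The median number of CG dinucleotides from 250 bases before to 50 after the mm9 starts was 10 for the falls, 20.25 for the bound rises, 9.75 for the unbound rises and 17 for all tested genes.

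Genes of PRC2 itself outside *Ezh1* and *Ezh2* were not called. *Suz12* was at 668 and 592 in *Ezh2* KO and 531 and 513 in *Ezh2* Y726D (log2 fold change -0.27 ± 0.15 SE, adjusted p = 0.423), and *Eed* at 1282 and 1030 against 1087 and 1252 (0.02 ± 0.14, adjusted p = 0.971). None of 8 tested genes of PRC2 accessory subunits was called. Of 27 tested PRC1 genes 3 were called higher, where 2.27% of all tested genes were. They included the SUZ12-bound *Cbx8* and *Cbx2*, which encode CBX chromodomain subunits. *Cbx8* was at 5.23 and 6.77 in *Ezh2* KO and at 79.4 and 73.8 in *Ezh2* Y726D, with 73.4 and 134 in *Ezh1/2* dKO (12.8-fold, 95% counting interval 7.10 to 25.2, adjusted p = 0.0308). *Cbx2* was at 146 and 166 against 433 and 563 (log2 fold change 1.66 ± 0.22 SE, adjusted p = 0.00834). The median of the 27 was 0.01, and none of 5 tested autosomal H3K27 acetyltransferase and demethylase genes was called. *Uty*, a Y-linked member of that list outside the autosomal rule, was called lower. It was at 470.5 and 399.6 in *Ezh2* KO and at 0 in both *Ezh2* Y726D libraries.

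Tested genes next to both engineered loci were examined for local effects. Beside *Ezh1*, none of *Tubg2*, *Plekhh3*, *Cntnap1*, *Ramp2*, *Vps25* and *Wnk4* was called, with log2 fold changes from -1.35 to 1.08. *Vps25*, an ESCRT-II subunit and the best-expressed of them, was at 623 and 629 against 637 and 710.4. Beside *Ezh2*, *Cntnap2*, *Cul1*, *Pdia4*, *Zfp786* and *Zfp398* were not called, with log2 fold changes from -0.003 to 0.47.

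Of the 15 PcG loci that the study displayed, 14 lie on these autosomes, 10 were tested and 6 were called higher, among them *Hoxa7*, *Hoxa10*, *Hoxa11*, *Hoxb7* and *Wnt5a*. Of all tested genes 2.27% were called higher. The loci were chosen by the study with these samples in hand and are not independent evidence of a direction. *Olig3*, a bHLH factor of the dorsal spinal cord, was at 0 and 1.94 in *Ezh2* KO, 16.0 and 24.6 in *Ezh2* Y726D and 0 in both WT libraries (adjusted p = 0.0409). *Cdx2*, the caudal-type factor of trophectoderm and hindgut, was at 1.05 and 25.2 against 33.0 and 439.7. Its 2 lines did not overlap, but the spread within each was wide (log2 fold change 4.06 ± 1.45 SE, adjusted p = 0.203). *Hoxd9* was at 0 in *Ezh2* KO and at 17.8 and 1.12 in *Ezh2* Y726D, *Mmp25* at 10.5 and 1.94 against 21.4 and 8.95 and *Fgfr3* at 55.4 and 51.3 against 62.4 and 42.5, and none of the 3 was called. *Lhx5*, *Six2*, *Hmx3* and *Foxd4* had at most 4.47 in any library of the 2 lines and were not tested.

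Lineage genes rose in small numbers in each list. Among 13 tested primitive endoderm genes 2 were called higher, both type IV collagens of the basement membrane. *Col4a1* was at 117 and 61.9 in *Ezh2* KO, 718 and 954 in *Ezh2* Y726D, 896 and 659.7 in *Ezh1/2* dKO and 147 and 80.9 in WT (9.30-fold, 95% counting interval 7.96 to 10.9, adjusted p = 0.00485), and its divergent neighbour *Col4a2* at 12.5 and 14.5 against 138 and 158. Of 13 mesoderm genes *Kdr*, the VEGF receptor of angioblasts (3.14 and 9.68 against 37.4 and 95.1), and *Mesp2*, a regulator of somite boundaries (5.23 and 5.81 against 24.1 and 30.2), were called higher. Of 8 neuroectoderm genes *Olig3* and *Neurod1* (5.23 and 3.87 against 23.2 and 23.5) and of 11 trophectoderm genes *Ascl2* (20.9 and 5.81 against 123 and 53.7) and *Bmp8b* (10.5 and 10.6 against 33.9 and 90.6) were called higher. None of these lists had a gene called lower, but over all tested genes only 1.13% were, against 2.27% called higher. Their medians over all members in the table, without a filter, were 0.50 for primitive endoderm, 1.08 for mesoderm, 1.60 for neuroectoderm and 0.81 for trophectoderm, in lists of which 13 of 19, 15 of 21, 14 of 16 and 13 of 14 genes were SUZ12-bound. In bulk RNA a change in the number of expressing cells and a change in RNA per cell cannot be told apart.

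Pluripotency genes were mostly not called, whereas several primed genes were. Of all tested genes 2.27% were called higher and 1.13% lower, so a list of 22 can hold 1 call without differing from other genes. Of 22 tested pluripotency genes 1 was called, *Dppa3*, a factor of naive cells and the maternal germline, at 170.4 and 114 in *Ezh2* KO and 21.4 and 20.1 in *Ezh2* Y726D (6.78-fold lower, 95% counting interval 4.89 to 9.61, adjusted p = 0.00611). *Ezh1/2* dKO ESCs had 283 and 414, above both *Ezh2* KO libraries. *Sox2* (724 and 686 against 635 and 567), *Nanog* (942 and 933 against 806 and 848) and *Zfp42* (2319 and 1852 against 1959 and 2006) were not called, with log2 fold changes of -0.23, -0.18 and -0.06. Of 7 tested primed genes 3 were called higher, with a median log2 fold change of 1.60 over the 7. *Pou3f1*, a POU factor of the epiblast, had no read in *Ezh2* KO and 10.7 and 14.5 in *Ezh2* Y726D, *Lef1*, a Wnt effector, was at 32.4 and 34.8 against 125 and 313, and *Dnmt3b*, a de novo DNA methyltransferase, at 317 and 272 against 641 and 1238. For the last 2, WT replicate 1 (133 and 1011) was above the *Ezh1/2* dKO libraries. *Dnmt3b* was the 1 called of 8 DNA methylation and TET genes.

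Genes of the two-cell-like state, which a small fraction of ESCs enters, were low in *Ezh2* KO. Of 16 tested autosomal genes 5 were called higher and none lower (2.27% and 1.13% of all tested genes), with a median of 1.73. *Zscan4f*, of a zinc finger family with near-identical copies whose reads may be split, was at 2.09 and 4.84 in *Ezh2* KO, 16.0 and 45.9 in *Ezh2* Y726D, 136 and 63.5 in WT and 128 and 180.2 in *Ezh1/2* dKO (8.32-fold, 95% counting interval 3.80 to 21.6, adjusted p = 0.0505). *Zscan4c* and *Zscan4d* followed the same order of lines. *Tmem92* was at 3.14 and 0 against 18.7 and 34.7, with 54.9 to 289 in WT and *Ezh1/2* dKO, and *Tdpoz4* at 0 against 4.46 and 6.71. None of the 17 autosomal list members was SUZ12-bound, so these rises lay outside the class above. *Ezh2* Y726D libraries remained under both WT libraries for *Zscan4f* and *Tmem92*.

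Imprinted genes held mostly rises among their calls. Of 25 tested 5 were called higher and 1 lower, where 2.27% and 1.13% of all tested genes were. A list of this size can hold 1 fall at that share without differing from other genes. *Ndn*, which encodes necdin, was at 35.5 and 41.6 against 154 and 279.7 (adjusted p = 0.00834), and its neighbour in the cluster *Peg12*, at 27.2 and 73.5 against 198 and 294 (adjusted p = 0.0388). *Cdkn1c*, which encodes the cell cycle inhibitor p57 and was the 1 called of 7 cyclin-dependent kinase inhibitor genes, was at 6.27 and 5.81 against 63.3 and 22.4 (adjusted p = 0.0896). *Peg10* and *Phlda2* were the other rises. *Plagl1*, a zinc finger factor, was at 23.0 and 33.9 against 6.24 and 11.2, with 187 to 227 in WT (adjusted p = 0.0732).

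Signalling lists held called rises and no called falls, where 2.27% of all tested genes were called higher and 1.13% lower. At that share of falls, lists of this size can hold none without differing from other genes. Of 34 tested Wnt genes 5 were called higher, including *Wnt5a*, *Lef1*, *Wnt6*, a ligand (3.14 and 6.77 against 27.6 and 45.9), and *Dkk3*, a secreted Dickkopf-family protein (25.1 and 26.1 against 177 and 135), with a median over the 52 members without a filter of 0.78. Of 30 BMP, TGF-beta and Nodal genes 5 were called higher, including *Bmp1*, *Bmp8b*, *Inhbb*, an activin subunit (2.09 and 2.90 against 15.2 and 32.4), and *Tgfbr3*, the co-receptor betaglycan (26.1 and 29.0 against 156 and 172). Their median was 0.17. Of 24 FGF and MEK feedback genes *Fgf15* alone was called higher, at 24.05 and 25.2 against 111 and 115 (4.57-fold, 95% counting interval 3.35 to 6.36, adjusted p = 0.0355). Both *Ezh2* Y726D libraries were above both *Ezh2* KO libraries in 13 of the 28 list members and below in none. Over all 16145 genes the shares above and below were 21.9% and 18.8%. *Ezh2* Y726D replicate 2 stood apart on this list, with a sum of 7334 against 4788 in replicate 1 and 4285 and 4251 in *Ezh2* KO, as did WT replicate 1 with 8300 against 4736 in replicate 2. *Spry4*, a feedback inhibitor of the pathway, was at 23.0 and 80.3 in *Ezh2* KO and 142 and 701 in *Ezh2* Y726D (adjusted p = 0.113). Of 15 retinoic acid genes 3 were called higher, all binding proteins: *Rbp4*, the retinol carrier of plasma (1.05 and 2.90 against 38.3 and 33.6), *Crabp1* (25.1 and 39.7 against 174 and 138) and *Crabp2* (26.1 and 30.0 against 99.0 and 72.7). WT lay between both lines for *Rbp4* (22.7 and 11.6) and *Crabp1* (104 and 43.3).

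The remaining lists had few calls, where 2.27% of all tested genes were called higher and 1.13% lower. Of 24 collagens and laminins *Col4a1* and *Col4a2* were called higher and *Col26a1*, at 111 and 128 against 22.3 and 5.59, lower (adjusted p = 0.0163). Of 23 germline genes *Mael*, a piRNA pathway gene, was called higher (107 and 69.7 against 225 and 274) and *Prdm1*, the BLIMP1 repressor of germ cell specification, lower (350.3 and 291 against 105 and 49.2). Of 15 p53 targets *Perp* (156 and 159.7 against 284 and 394) and *Pmaip1* were called higher, and of 14 tested stress genes none was called. Both *Ezh2* Y726D libraries were below both *Ezh2* KO libraries in 6 of the 14 and above in 4, where the shares over all tested genes were 21.2% and 22.5%. The lower ones included *Chac1*, a glutathione-degrading enzyme of the stress response, at 1131 and 1182 in *Ezh2* KO and 481 and 40.3 in *Ezh2* Y726D (log2 fold change -3.04 ± 0.83 SE, adjusted p = 0.107). *Trib3*, *Herpud1* and *Atf3* had log2 fold changes of -1.81, -1.87 and -2.46 (adjusted p = 0.106, 0.111 and 0.115), and *Ezh2* Y726D replicate 2 was the lowest library for all 4 genes. Of 8 fibroblast feeder markers 2 were tested, and *Thy1* was called higher at 15.7 and 10.6 against 84.7 and 76.1, with 88.2 and 101 in *Ezh1/2* dKO. The 8 markers summed to 31.4 and 57.1 in *Ezh2* KO, 130.2 and 191 in *Ezh2* Y726D and 163 and 224 in *Ezh1/2* dKO. Several genes stand in 2 lists and count in each.

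Chromosome 12 differed from the other autosomes as a whole. Its 463 tested genes had a median log2 fold change of -0.28, against 0.01 on the other autosomes outside it, and both *Ezh2* Y726D libraries were below both *Ezh2* KO libraries in 50.8% of them, against 21.2%. Relative to the mean of the *Ezh2* KO libraries the median of the chromosome was -0.25 and -0.31 in the *Ezh2* Y726D replicates, between -0.01 and 0.01 in the WT and *Ezh1/2* dKO libraries and within 0.02 of 0 in the *Ezh2* KO replicates. No p is given, since 2 libraries against 2 cannot go below 0.33 in an exact permutation test and the chromosome was singled out from earlier results. Its SUZ12-bound genes moved up all the same, with a median of 0.54 over 79 genes, and the other 384 had a median of -0.33. The next largest shift was on chromosome 4 (median -0.11), where the 442 genes from 120 Mb (mm9) had a median of -0.20 and the 443 before it of -0.01. The origin of these shifts was not tested.

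**Figure D5:**
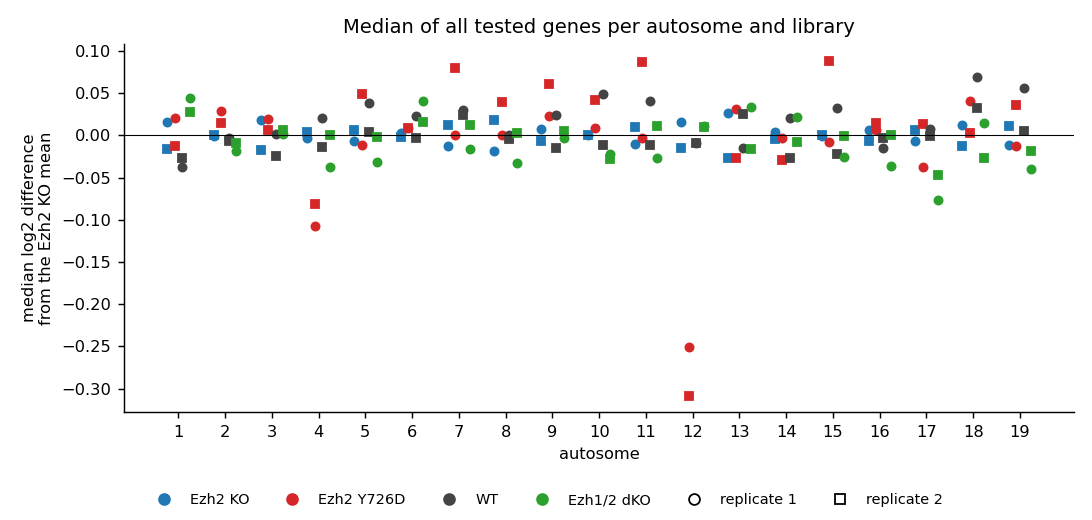
Median over the tested genes of each autosome of the log2 difference between a library and the mean of the 2 *Ezh2* KO libraries, with circles for replicate 1 and squares for replicate 2. On chromosome 12 both *Ezh2* Y726D libraries (red) lie at -0.25 and -0.31 and the WT and *Ezh1/2* dKO libraries between -0.01 and 0.01, and on chromosome 4 the *Ezh2* Y726D libraries lie at -0.11 and -0.08.

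On chromosome 12 itself 14 genes were called higher (3.02%) and 12 lower (2.59%). *Trib2*, a pseudokinase, was at 1.05 and 1.94 in *Ezh2* KO and 29.4 and 43.6 in *Ezh2* Y726D, with 20.01 and 12.5 in WT (23.7-fold, 95% counting interval 7.79 to 118, adjusted p = 0.00799). *Sox11*, a neural SOX factor, was at 5.23 and 6.77 against 95.4 and 42.5, *Arg2*, the mitochondrial arginase, at 4.18 and 0 against 30.3 and 20.1 and *Gm5662* at 2.09 and 2.90 against 16.0 and 43.6. The laminin gene *Lamb1* (107 and 41.6 against 258 and 242) and the imprinted *Dio3* (5.23 and 0.968 against 18.7 and 26.8) also rose. *Agr2*, one of the 25 intestinal markers, was at 101 and 87.1 in *Ezh2* KO, 125 in WT replicate 2 and 0 in the 5 other libraries. *Fbln5*, a fibulin of elastic fibres, fell from 125 and 151 to 22.3 and 12.3 (7.77-fold, 95% counting interval 5.47 to 11.3, adjusted p = 0.00956), *Wdr20rt* from 37.6 and 38.7 to 14.3 and 2.24 and *Atp5s* from 133 and 91.9 to 49.9 and 15.7. *Esrrb*, a naive pluripotency factor on this chromosome, was at 2497 and 2280 against 1969 and 1812 and was not called (log2 fold change -0.34 ± 0.12 SE, adjusted p = 0.189), close to the median of the chromosome. *Pax9* (0 and 4.84 against 8.02 and 7.83) was not called. Without *Ezh2* Y726D replicate 1 the lower calls on this chromosome were 42, and without *Ezh2* KO replicate 2 they were 2.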

How the data were processed

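RNA-seq of 8 ESC libraries (SMART-seq2, from total RNA, unstranded) was used with ChIP-seq peak lists of 3 targets. The authors used TopHat (mm9), PICARD for duplicates, HTSeq-count on RefSeq genes and the size factors of DESeq2. What they deposited is a signal, the normalized count of each gene (reads over the size factor). All values (100.0% within 0.01 of a read) were whole multiples of 1 read, so reads could be recovered. The deposited peak lists, called by the authors with MACS2 after Bowtie, give a -log10 p per peak, and peaks at p of at most 1e-10 were used. Of the genes, 16570 were placed on mm9 by symbol and 854 through a synonym in GENCODE annotation, 631 not.

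The test was limma 3.58.1 in R 4.3.3 (trended empirical Bayes on log2(normalized count + 1), all 8 libraries, no replicate block, Benjamini-Hochberg over 13872 genes). Recovered reads went into DESeq2 1.42.0 and edgeR 4.0.16 as alternatives. In data simulated for this comparison over 13872 genes, a 4-fold change was found in 166 of 200 changed genes (83%) beside 22 other genes, and unchanged data gave 0 calls. Shares and ratios of reads have 95% intervals for counting error only, and floors are 3 reads. Python 3.11.15, pandas 2.3.3, scipy 1.17.1, numpy 2.4.6 and matplotlib 3.10.9 served for the rest.

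The genes, gene lists and chromosome 12 were chosen with earlier results of these data known. Named genes are the 15 largest called rises and falls with non-overlapping lines, 4 of each on chromosome 12, up to 4 called genes per list and direction, core PRC2, PcG loci, pluripotency genes and 3 neighbours on each side of *Ezh1* and *Ezh2*. *Hoxa3*, *Hoxd10*, *Zscan4c*, *Zscan4d*, *Peg10*, *Phlda2*, *Uty*, *Vil1*, *Muc2*, *Spry4*, *Chac1*, *Trib3*, *Herpud1* and *Atf3* were added with their values in view. Some genes that this rule names are not reported here. The study calls replicates biological, without further detail, so p-values measure the spread between these samples. The alternatives are in the closing section. The labels of 2 *Ezh2* Y726D peak lists (SUZ12, H3K27me3) do not mention *Ezh1*, and both lists were assigned to the same line. Protein sequences, RING1B, H2AK119ub, H3K27me1, H3K27me2, ATAC-seq and the other samples were not used here.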

Additional observations from a re-analysis of the deposited data

How the results depend on the processing

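The named genes that were called kept their direction under every alternative run in which they were tested. Stricter filters left some untested. With a mean of at least 20, 54 stayed called and 6 did not, and with a mean of at least 5 in WT, 65 stayed called and 1 did not. Of the 78, 78 stayed called with size factors without chromosome 12, 74 with a pseudocount of 5, 71 with DESeq2, 69 with edgeR, 65 without a filter, 62 with quantile normalization and 52 with only the 4 libraries, and 29 to 70 when 1 library was left out. Leaving out 1 library gave 64 to 384 higher and 19 to 459 lower calls on the autosomes outside chromosome 12, 3 to 16 and 2 to 42 on chromosome 12, a difference of the chromosome 12 median from the other autosomes of -0.34 to -0.25 (-0.29 with all), 52 to 242 bound rises, a bound median of 0.48 to 0.61, a bound share of 63.0% to 81.2% of the rises and 5 to 6 Hox rises.

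With only the 4 libraries there were 134 higher and 67 lower calls, 7 and 7 on chromosome 12, 106 bound rises (79.1%) and 5 Hox rises. Quantile normalization gave 172 higher calls, 124 bound rises, a bound median of 0.42 and 5 Hox rises. DESeq2 called 5 Hox genes. The bound median was 0.47 with a pseudocount of 5, 0.42 with a mean of at least 20 (4 Hox rises), 0.51 with a mean of at least 5 in WT (1 Hox rise) and 0.78 with peak p of at most 1e-20 (55.6% of the rises). Without a filter the chromosome 12 difference was -0.22. At an unadjusted p under 0.05 the counts were 757 higher and 342 lower, 28 and 27 on chromosome 12, and 470 bound rises (62.1%). At an adjusted p under 0.05 they were 157 and 75, 7 lower on chromosome 12, 121 bound rises (77.1%) and 5 Hox rises. The cause of these shifts was not tested. The filter on WT levels and the counts without intestinal genes (286 higher, 140 lower) or chromosome 4 (274 and 127) were chosen after seeing the data.

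Samples with the same replicate number were not paired by the labels, and their deviations correlated between -0.41 and 0.29 across lines (0.24 between *Ezh2* KO and *Ezh2* Y726D). With a replicate block there were 235 higher calls, 14 higher and 10 lower on chromosome 12, and 166 bound rises.

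Of the 23 named genes that were not called, 9 changed sign in some fits. Leaving out 1 library gave log2 fold changes of -0.14 to 0.18 for *Eed*, -0.32 to 0.22 for *Fgfr3*, -0.059 to 0.13 for *Pou5f1*, -0.23 to 0.10 for *Zfp42*, -0.77 to 1.29 for *Cntnap1* (-0.034 with quantile normalization), -1.19 to 0.33 for *Wnk4*, -0.66 to 1.47 for *Cntnap2*, -0.11 to 0.25 for *Cul1* and -0.30 to 0.29 for *Zfp398*. At the 4069424 to 4932714 reads of the compared libraries, genes at a few reads cannot be told from silent ones.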
